A study of Rattus norvegicus with 9 samples.

Results

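The microRNAs (miRNAs) rno-miR-31, rno-miR-489 and rno-miR-335, known from muscle stem cells, were followed in the rat soleus during disuse. They were taken by probe name from the scanner files, where 3 of the 334 miRNA probes carried these names, each with 9 repeat spots on each of 9 arrays. The soleus is a postural calf muscle that wastes when it no longer bears weight. The groups were control rats and rats kept in hindlimb suspension by the tail for 2 days or for 7 days. All were male Sprague-Dawley rats aged 6 months, and each group had 3 arrays. The RNA came from whole muscle, so fewer cells of a type and less RNA per cell cannot be told apart. Nothing in the labels ties each replicate to its own animal, and the spread behind each p-value may thus be technical. The arrays measure no cell type directly, so the source of these 3 miRNAs within the muscle was not measured.

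Satellite cells are the stem cells that lie under the sheath of each muscle fibre and rest until injury or growth calls on them. In the mouse, miR-31 holds back the messenger RNA of Myf5, a factor that commits these cells to the muscle lineage, while they are resting. MiR-489 also belongs to resting mouse satellite cells. It lies in an intron of the calcitonin receptor gene Calcr and represses Dek, a gene linked to cell division. MiR-335 lies in the imprinted gene Mest in mouse and human. In the mouse it belongs, with miR-31, to the miRNAs that become more abundant in regenerating muscle.

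The array targets are shown because they are what each spot measured, with the seed (bases 2 to 8 from the 5′ end, the part that pairs with target messages) in capitals.
miR-31: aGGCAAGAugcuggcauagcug
miR-489: aAUGACAUcacauauauggcagc
miR-335: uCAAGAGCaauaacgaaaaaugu
No seed was shared among them, and none was shared with any other probe on the array. The nearest other target differed by 9 single-base edits from miR-31, 8 from miR-489 and 8 from miR-335, counting substitutions, insertions and deletions. Their GC content fell from 54.5% in miR-31 to 39.1% in miR-489 and 30.4% in miR-335. Brightness depends on the probe, so levels of different probes are not compared.

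The miR-31 target was identical to the mature miR-31a-5p that RefSeq gives on the GRCr8 build, at chr5:108714906-108714927 on the minus strand. The miR-489 target began 1 base before the mature miR-489-3p of RefSeq, which lies at chr4:32648063-32648084 on the minus strand within Calcr.
RefSeq miR-489-3p: aUGACAUCacauauauggcagc
RefSeq Mir489 hairpin: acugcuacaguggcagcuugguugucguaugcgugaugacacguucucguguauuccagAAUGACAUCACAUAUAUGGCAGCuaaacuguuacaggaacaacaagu
The capitals in the mature form mark its seed, and those in the hairpin mark the array target. The extra base moves the seed by 1 position between the array's version and that of RefSeq. The 23 bases of the array target lie at positions 60 to 82 of the 106-base hairpin. Its neighbour Mir653, 545 bases away, had no probe under the name miR-653 on the array.

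Correlations of normalised log2 intensity lay between 0.971 and 0.996 over pairs of arrays. The normalisation and the wide range of intensity favour high values, so these do not show how alike the arrays were. The number of probes detected ran from 149 to 204 over the arrays. Testing was limited to the 178 probes with a detected signal on all 3 arrays of some group, and all 3 miRNAs were among them. At an adjusted p of 0.05 limma called 1 after 2 days (miR-333) and 0 in each other comparison, with 12 probes at an unadjusted p under 0.05 after 2 days, 25 after 7 days and 10 between the times. For detection, over 0.5 of a probe's 9 spots had to exceed the limit set by 95% of the empty spots on the same array. That limit ran from 31.6 to 53.6 units of scanner brightness on the controls, from 33.7 to 73.3 after 2 days and from 32.0 to 38.4 after 7 days. The tissue label was borne out by its markers: of 6 miRNAs of striated muscle, 5 were detected on all 9 arrays, among them miR-499 and miR-1, and miR-208 on 5.

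MiR-31 lay at the edge of background. It was detected on 2 of 3 control arrays, 1 of 3 arrays after 2 days and 3 of 3 after 7 days, and on 4 of 9 arrays at the stricter 99th percentile. Its mean spot brightness on the controls was 44.0, 48.7 and 34.4, with 6, 0 and 8 of 9 spots above the limit. After 2 days it was 33.0, 47.6 and 72.8, with 3, 0 and 9 spots above the limit. After 7 days it was 42.7, 37.0 and 42.6, with all 9 spots above the limit on each array. Its brightness was at most 1.34 times the limit on any array. The limits of the 7-day arrays all lay below those of 4 of the 6 other arrays, and the part of the limit in the detection of miR-31 was not tested.

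MiR-489 and miR-335 stood above the limit with all 27 of their spots in every group. At the stricter 99th percentile miR-335 was detected on all 9 arrays and miR-489 on 8, the exception being 2-day array 1. The mean brightness of miR-489 was 126, 90.9 and 101 on the controls, 55.8, 124 and 140 after 2 days, and 131, 162 and 176 after 7 days. The mean brightness of miR-335 was 208, 170 and 132 on the controls, 161, 270 and 113 after 2 days, and 245, 233 and 312 after 7 days. Before any correction, the 7-day arrays were therefore brighter than each control array for both miRNAs, while the 2-day arrays spanned the controls. The share of all probes that separated in this way before correction was not computed. With no normalisation between arrays, the median log2 fold change of all tested probes at 7 days against control was 0.14. Set against the limit, miR-489 was 1.70 to 3.20 times as bright on the controls, 1.65 to 2.59 times after 2 days and 4.03 to 5.08 times after 7 days. For miR-335 the ranges were 3.16 to 4.83 times, 2.09 to 4.77 times and 7.27 to 8.11 times. These ratios also carry the limit itself. It ran from 32.0 to 38.4 after 7 days but reached 53.6 on the controls and 73.3 after 2 days.

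**Figure D1:**
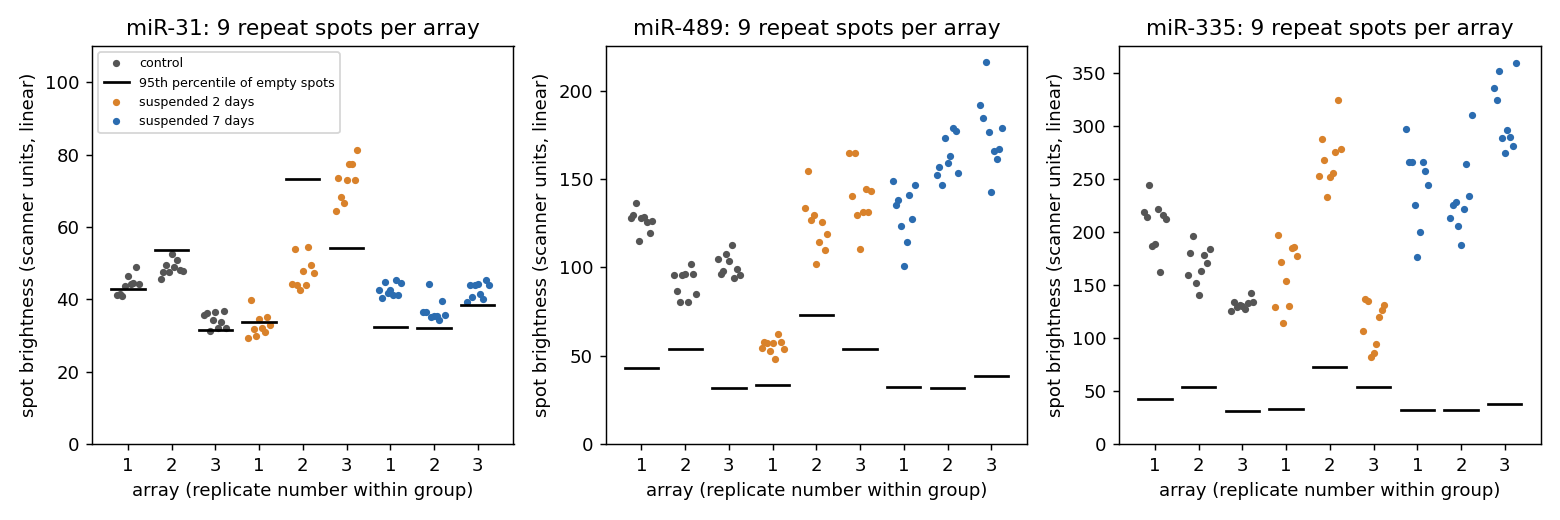
Scanner brightness (linear units) of the 9 repeat spots of each miRNA on each array, coloured by group, with a black bar at the array's detection limit from its empty spots. MiR-31 straddles the bar on the control and 2-day arrays, whereas every spot of miR-489 and miR-335 lies above it.

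MiR-489, the miRNA from the calcitonin receptor gene, was lowest after 2 days and highest after 7 days. Its normalised log2 intensity was 7.29, 6.78 and 7.29 on the controls, 6.88, 6.67 and 7.01 after 2 days, and 7.33, 7.36 and 7.38 after 7 days. The 7-day arrays lay above all 6 others and close together, and the 2-day arrays lay below controls 1 and 3 but overlapped control 2. The control mean was 7.12 ± 0.29, that at 2 days 6.85 ± 0.17 and that at 7 days 7.35 ± 0.02 (SD, n = 3 arrays).

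The contrast between the times was the largest of the 3 for miR-489. At 7 days it stood 0.50 ± 0.15 log2 units above 2 days (SE, limma), a ratio of 1.42 with a 95% interval from 1.11 to 1.81. An offset of 50 was added before the logarithm, while miR-489 lay 28.4 to 142 units above the arrays' empty-spot medians. That offset compresses the ratio, so the intervals given for miR-489 do not bound its own change. The unadjusted p was 0.0119, the third smallest of 178, and the adjusted p was 0.392, so the difference did not pass. The groups did not overlap, which held in this direction for 5.06% of the tested probes. The percentage called by limma in this comparison was 0.

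Against control, miR-489 had a log2 fold change of -0.27 ± 0.15 at 2 days (95% interval -0.63 to 0.09, limma adjusted p = 0.873) and 0.23 ± 0.15 at 7 days (-0.12 to 0.59, adjusted p = 0.729). Neither passed. Limma called 0.562% of probes at 2 days and 0% at 7 days. Both values moved with control array 2: without it the log2 fold change was -0.46 at 2 days (adjusted p = 0.239) and 0.06 at 7 days (adjusted p = 0.909). In a moderated F test of both suspension times, the adjusted p of miR-489 was 0.395 (unadjusted 0.0346), and 0% of probes passed.

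MiR-335, which lies in Mest in mouse and human, ran from 7.64 to 8.12 on all arrays except 2-day array 3. Its normalised log2 intensity was 7.83, 7.78 and 7.64 on the controls, 8.11, 7.88 and 6.71 after 2 days, and 8.12, 7.89 and 8.03 after 7 days. Array 3 of the 2-day group was the lowest of all 9, and the other two 2-day arrays lay above every control. The means were 7.75 ± 0.10, 7.57 ± 0.75 and 8.01 ± 0.11 (SD, n = 3 each). The 7-day arrays lay above all controls, so that 2 of the 3 miRNAs, miR-489 and miR-335, were higher after 7 days without overlap. The same held for 11.2% of all tested probes. After 2 days 0 of the 3 were without overlap with the controls, against 7.87% of all tested probes in either direction.

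The log2 fold change of miR-335 was -0.18 ± 0.32 at 2 days (95% interval -0.94 to 0.57, limma adjusted p = 0.974) and 0.26 ± 0.32 at 7 days (-0.49 to 1.01, adjusted p = 0.925). Between 7 and 2 days it was 0.44 ± 0.32 (-0.31 to 1.20, adjusted p = 0.948). Without 2-day array 3 the direction at 2 days turned, to 0.24 (adjusted p = 0.529), and the difference between the times shrank to 0.01. At 7 days the value without that array was 0.26 ± 0.10 (adjusted p = 0.285), since the array also widened the shared spread.

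MiR-31 gave no contrast that stood out from its error. It was tested only because the 7-day arrays all detected it, the group with its highest mean, so its 7-day contrasts are not independent of the filter. Its normalised log2 intensity was 6.07, 6.12 and 6.13 on the controls, 6.16, 5.89 and 6.21 after 2 days, and 6.34, 6.09 and 6.05 after 7 days. All 3 groups overlapped. The log2 fold change was -0.02 ± 0.12 at 2 days (95% interval -0.28 to 0.25) and 0.06 ± 0.12 at 7 days (-0.21 to 0.33), with limma adjusted p-values of 0.977 and 0.946. Between 7 and 2 days it was 0.08 ± 0.12 (-0.19 to 0.34, adjusted p = 0.948). The offset of 50 added before the logarithm compresses changes of a probe this dim, so these intervals do not bound the change in miR-31 itself.

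**Figure D2:**
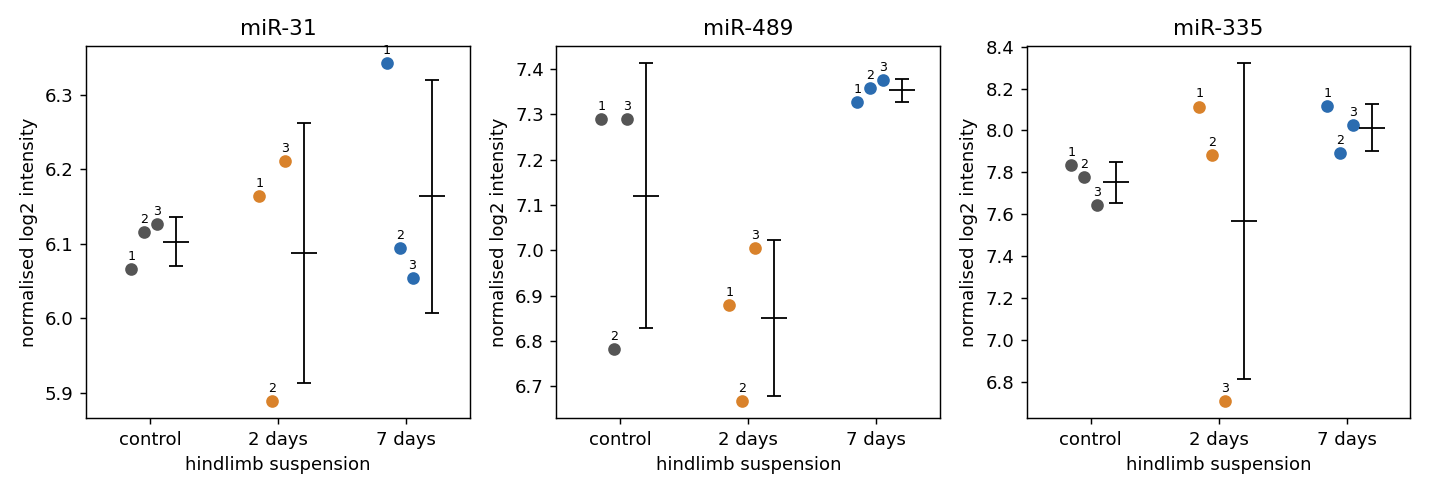
Normalised log2 intensity of each miRNA on each array, with the replicate number beside each point and the group mean and SD (n = 3) as black bars to the right; the vertical scale differs between panels. The 7-day arrays of miR-489 lie between 7.33 and 7.38, above every other array, and 2-day array 3 of miR-335 lies apart at 6.71.

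The background differed most among the 2-day arrays. Medians of the empty spots were 29.1 to 40.6 on the controls, 27.4 to 53.3 after 2 days and 29.3 to 34.2 after 7 days. The 3 arrays with the highest empty-spot medians (2-day array 2, 2-day array 3 and control array 2) were among the 4 with the lowest normalised miR-489. The fourth, 2-day array 1, had the lowest empty-spot median of all. With the empty-spot median subtracted in place of the normexp correction, miR-489 stood at 0.54 ± 0.16 between the times (limma adjusted p = 0.398). It stood at 0.62 ± 0.19 with no background correction (adjusted p = 0.386) and at 0.68 ± 0.21 with a normexp offset of 16 (adjusted p = 0.371).

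In both 7-day contrasts miR-489 and miR-335 were above 0 under each scaling tried between arrays, but by differing amounts. The median log2 fold change of all tested probes at 7 days against control ran from -0.21 to 0.21 over these scalings. Set against that median, miR-489 at 7 days stood at 0.26 with quantile normalisation, 0.30 with cyclic loess and 0.32 with centring or no normalisation. For miR-335 the same values were 0.29, 0.34 and 0.42. For miR-31 they were 0.09, 0.03 and -0.18, so its sign depended on the scaling. Between 7 and 2 days, miR-489 lay 0.48, 0.47 and 0.41 above the median of all probes. With centring on the median of all 334 probes limma called miR-489 between the times (log2 fold change 0.78, adjusted p = 0.0264), in a setting where the median of all tested probes was itself 0.37 and 16 probes were called, all higher.

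**Figure D3:**
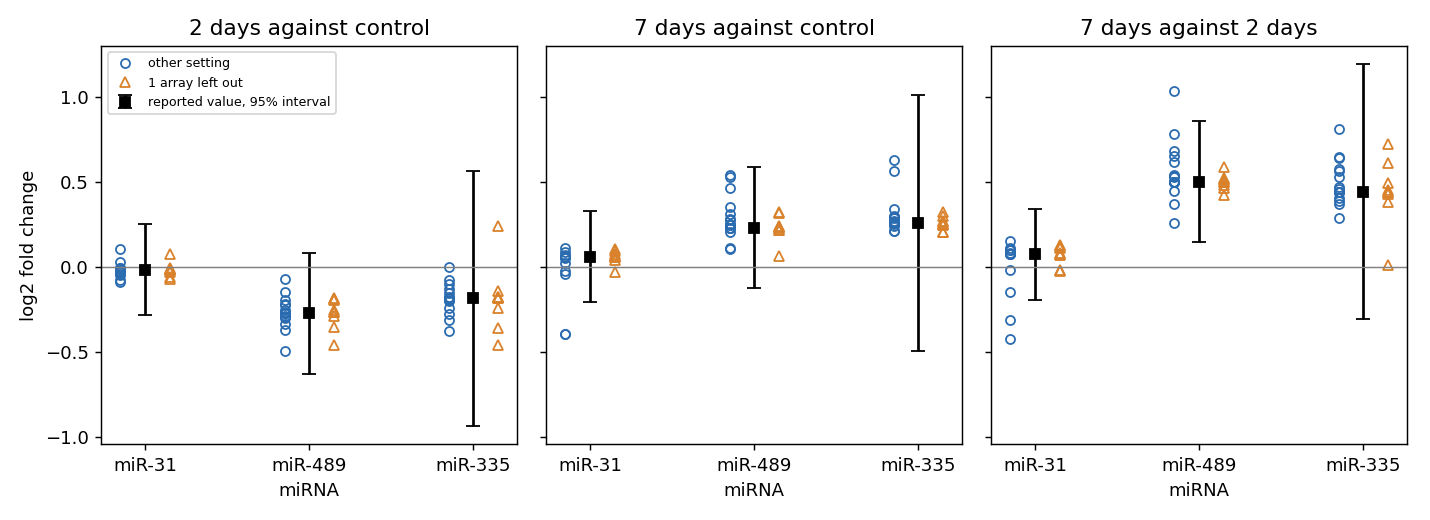
Log2 fold change of each miRNA in the 3 comparisons: the reported value with its 95% interval (black), the values under other settings (blue circles) and with 1 array left out (orange triangles). For miR-489 every value between 7 and 2 days lies above 0, from 0.26 to 1.04, while miR-31 lies on both sides of 0 in all panels and miR-335 does so at 2 days.

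The authors' deposited table lists miR-489 and miR-335 among its 162 probes. In that table miR-489 had values of 89, 58 and 112 on the controls, 63, 49 and 66 after 2 days, and 126, 135 and 106 after 7 days. The 3 values after 2 days lay below all 3 after 7 days, and control array 3 fell within the 7-day range. These values come from the same arrays, and the share of the 162 probes that separated in this way was not computed. MiR-335 was listed in the authors' deposited table at 184, 153 and 149 on the controls, 233, 170 and 55 after 2 days, and 217, 194 and 203 after 7 days. The low value of 2-day array 3 was thus also in the authors' own processing. On the log2(value + 1) scale of that table, miR-489 stood 1.04 ± 0.25 above 2 days at 7 days (limma adjusted p = 0.352).

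The spread between arrays was larger than the standard error of the mean of the repeat spots. The pooled SD between arrays of a group was 0.14 log2 units for miR-31, 0.20 for miR-489 and 0.44 for miR-335. The median standard error of the mean of 9 spots was 0.02, 0.03 and 0.05. The number of arrays, not of spots, therefore limits the precision.

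MiRNAs were described from 4 lists, shown by counts and medians beside those of all tested probes. MiR-31, miR-489 and miR-335 are among the members, so their own values enter the counts and medians of the lists that hold them. The lists are of resting satellite cells, regenerating muscle, proliferating myoblasts and myogenic differentiation. Their members are not particular to these cells: miR-143 and miR-214 are also in the list of smooth muscle and fibroblasts below. Over all 178 probes the median was -0.05 at 2 days and -0.03 at 7 days, with 107 and 104 below 0, 12 and 25 at an unadjusted p under 0.05, and 1 and 0 called. Of the miRNAs of resting satellite cells, 5 of 5 were tested and 0 were called in either direction at either time. The median was -0.10 at 2 days, with 5 of 5 below 0 and 0 at an unadjusted p under 0.05. It was -0.01 at 7 days, again with 0 at an unadjusted p under 0.05, and the 2 above 0 were miR-489 and miR-31. MiR-497 and miR-195, which curb cell cycle genes, stood at -0.32 ± 0.19 and -0.01 ± 0.08 at 7 days. MiR-127, of the imprinted Dlk1-Dio3 region, stood at -0.41 ± 0.36.

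Of the 6 miRNAs of regenerating muscle 4 were tested, and miR-34c and miR-449 were detected on no array. None was called at either time by limma (1 had an unadjusted p under 0.05 at 7 days). The list's median was -0.02 at 2 days and 0.04 at 7 days. MiR-494 stood at -0.03 ± 0.09 and -0.23 ± 0.09 (limma adjusted p = 0.977 and 0.320). MiR-206, the muscle miRNA of slow and newly formed fibres, stood at 0.01 ± 0.06 and 0.02 ± 0.06. MiR-1 had the same values with the opposite sign, -0.01 and -0.02. Both probes lay at the top of the intensity range, where quantile normalisation gives every array the same values. These numbers therefore do not measure whether miR-206 changed. At 7 days the list's median lay between miR-206 and miR-31 (0.06), the latter at the edge of background. That median therefore says little about the list as a whole.

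The list of proliferating myoblasts had lower medians, -0.35 at 2 days and -0.24 at 7 days, with 8 and 7 of 9 tested members below 0, against 107 and 104 of all 178 probes. None was called by limma, and 3 of 9 had an unadjusted p under 0.05 at each time, against 12 and 25 of 178. The list was chosen with earlier results of these data known, and its members may not vary independently, so these counts are a description. It was led by miR-222 (-0.54 ± 0.11 at 2 days and -0.61 ± 0.11 at 7 days) and miR-221 (-0.50 ± 0.12 and -0.60 ± 0.12), which repress a brake on the cell cycle. Their limma adjusted p-values were 0.0599 and 0.131 at 2 days and 0.0874 and 0.0946 at 7 days. In the same test on the authors' deposited table, both were called at 7 days. MiR-17, of a cluster that promotes growth, stood at -0.39 ± 0.12 and -0.24 ± 0.12. The 15 miRNAs of myogenic differentiation had medians of -0.07 and -0.08, with 0 called by limma (0 and 1 at an unadjusted p under 0.05). MiR-214 stood at -0.52 ± 0.19 at 7 days, miR-24 at -0.14 ± 0.09 and miR-322 at -0.08 ± 0.13.

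**Figure D4:**
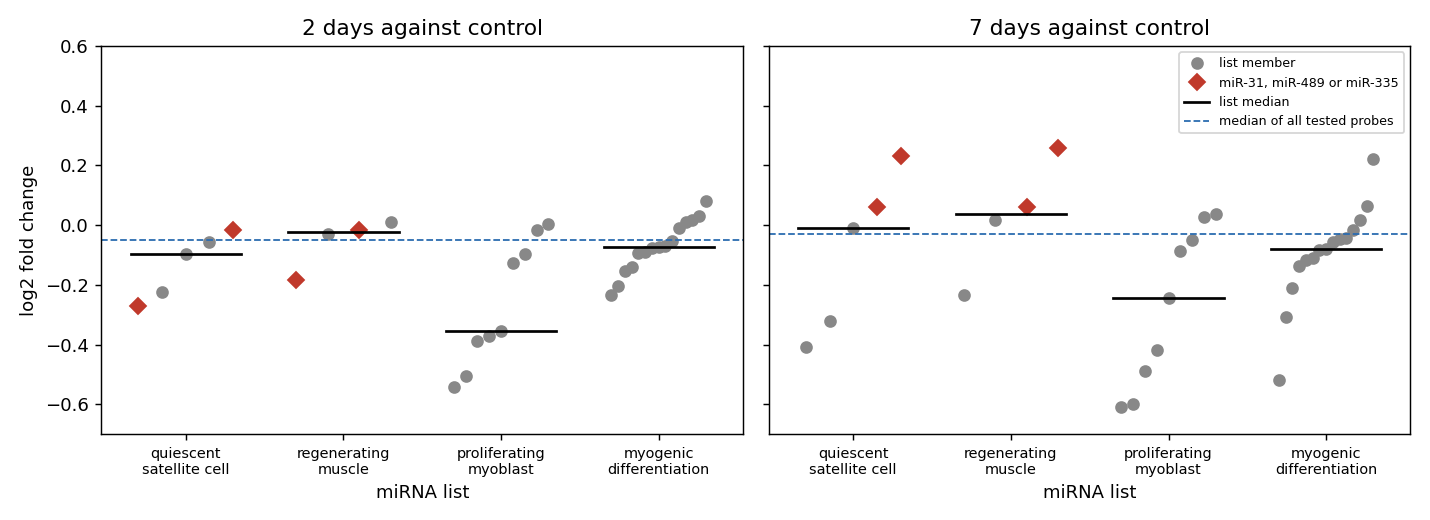
Log2 fold change of each tested member of the 4 miRNA lists at 2 days (left) and 7 days (right) against control, with list medians as black bars and the median of all 178 tested probes as a dashed line. Red diamonds are miR-31, miR-489 and miR-335; the latter pair lie lowest in their lists at 2 days, at -0.27 and -0.18, and highest at 7 days, at 0.23 and 0.26.

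Markers of other cells were measured on the same arrays. Summed brightness of the 6 blood cell miRNAs ran from 6139 to 8200 on the controls, 6896 to 8090 after 2 days and 8152 to 9689 after 7 days, with 3 of 6 detected on all arrays and miR-144 and miR-142-3p on none. For the 2 endothelial miRNAs the ranges were 16533 to 19366, 18050 to 18763 and 21595 to 24683. For the 4 of smooth muscle and fibroblasts they were 14484 to 18476, 10622 to 19781 and 14160 to 20287. The nerve list (6 miRNAs, of which miR-138 and miR-219 were detected on no array) summed to 2407 to 3259, 2177 to 3464 and 2848 to 3897. In the nerve list miR-128a alone was detected on all 9 arrays. The epithelial list (4 miRNAs, with miR-141 detected on no array) summed to 198 to 240, 279 to 317 and 222 to 280. The sums hold the background of each probe, and empty-spot medians ran from 27.4 to 53.3 over the arrays. The low epithelial sums thus hold a large share of background, and their differences between groups are not read. Summed endothelial brightness was thus higher after 7 days, as was the uncorrected brightness of miR-489 and miR-335. After normalisation the pair of endothelial members differed, with log2 fold changes of 2.86 ± 0.70 for miR-126* and 0.00 ± 0.08 for miR-126 at 7 days (limma adjusted p = 0.138 and 0.995). The normalised medians at 7 days were -0.24 for the 3 tested blood miRNAs and -0.52 for those of smooth muscle and fibroblasts, with 4 of 4 below 0, 2 at an unadjusted p under 0.05 and 0 called. These did not follow the summed brightness, and the part of other cells in the values of these miRNAs was not tested.

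The probes whose values ran most like each miRNA over the 9 arrays were named by Pearson's correlation, as a description over arrays that share their normalisation. For miR-489 these were miR-542-3p (r = 0.94, Spearman 0.92), miR-350 (0.83 and 0.80) and miR-7* (0.75 and 0.70). Their targets are shown beside that of miR-489 because they differ from it by 10 to 13 edits.
miR-542-3p: uGUGACAGauugauaacugaa
miR-350: uUCACAAAgcccauacacuuucac
miR-7*: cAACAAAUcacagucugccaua
Chosen for this likeness, they share the group pattern of miR-489 by selection. Between the times they stood at 0.21 ± 0.07, 0.33 ± 0.11 and 0.46 ± 0.13, given as a description. MiR-542-3p was detected on 6 of 9 arrays.

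For miR-335 the most alike were let-7d* (r = 0.88, Spearman 0.75), miR-196a (0.77 and 0.20) and let-7e (0.70 and 0.83). Their likeness lay partly in 2-day array 3, on which let-7d*, miR-196a and let-7e also had their lowest values. For miR-31 they were miR-379 (0.84 and 0.92), miR-224 (0.73 and 0.85) and miR-539 (0.71 and 0.55), all lowest on 2-day array 2, the array with the highest background. Among the 3 miRNAs themselves Pearson's correlation was 0.37 for miR-31 and miR-489 (Spearman 0.00), 0.15 for miR-489 and miR-335 (Spearman 0.37), and -0.13 for miR-31 and miR-335 (Spearman 0.03). The order of the pairs depended on the measure.

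**Figure D5:**
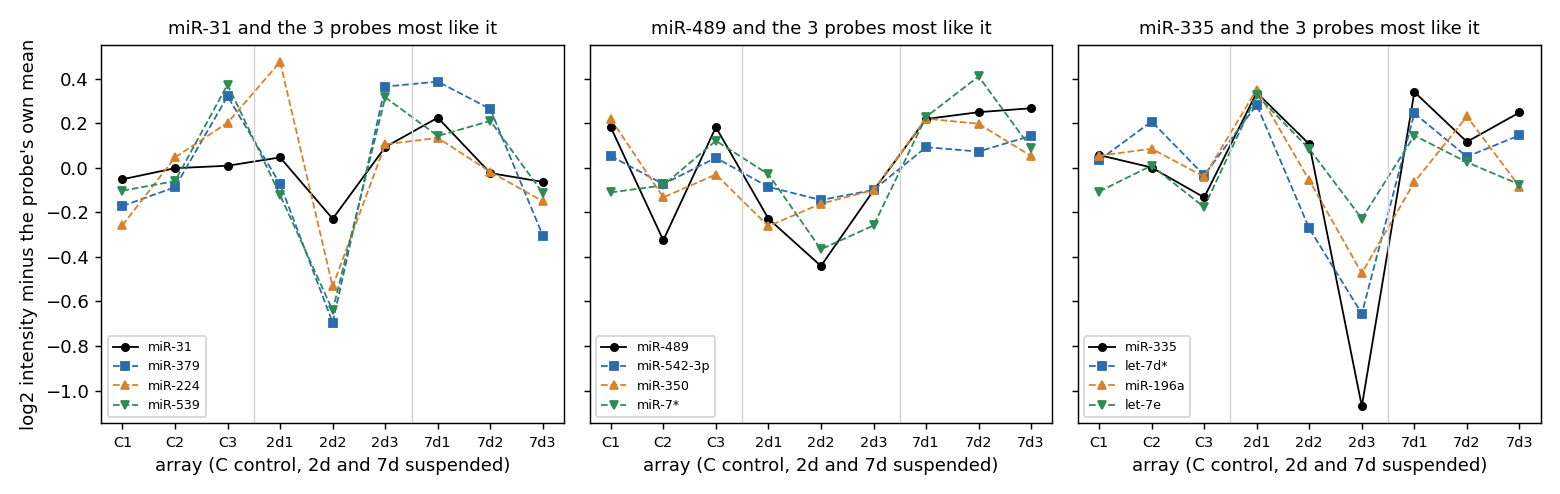
Log2 intensity minus each probe's own mean over the 9 arrays, for each of the 3 miRNAs (black, solid) and the 3 probes most like it (dashed). MiR-489 and the probes chosen for likeness to it lie lower on the 2-day than on the 7-day arrays on average, while the panels of miR-335 and miR-31 are marked by single low 2-day arrays.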

How the data were processed

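Small RNA from 5 µg of total soleus RNA was hybridised in 1 colour by a service provider, per the labels' protocols. The deposited scanner files hold spot intensity on a linear scale, per the file headers, and the 614 empty spots had array medians of 27.4 to 53.3, so the values were treated as still holding background. The scanner's software is not given in the sources used here. A value table from the authors holds whole-number intensity for 162 probes (1 not matched by name to a scanner probe), with column medians of 306 to 403.5; its log2 values followed scanner brightness with r of 0.959 to 0.994, and its scale and centring stay unknown. It served as an alternative.

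In R 4.3.3 with limma 3.58.1, spots were corrected by normexp (offset 50), control spots left out, log2 values quantile normalised and 9 repeat spots averaged. One fit of 3 group means over 9 arrays (lmFit, eBayes, 7.78 degrees of freedom) gave two-sided tests, adjusted by Benjamini-Hochberg over 178 probes, and was tested on simulated data. The deposited intensity files name no batch.

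The 3 miRNAs and all lists were chosen with earlier results of these data known. Named probes were the 3 with the highest Pearson correlation to each miRNA, any called probe, and up to 3 per list with the smallest F test p. Of the list names, miR-155 had no probe under that name. Mature sequences and hairpins are RefSeq's (GRCr8) and matched 2 of the 3 miRNAs.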

Additional observations from a re-analysis of the deposited data

How the results depend on the processing

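Over 26 alternatives, miR-489 kept its direction in all 3 contrasts and miR-335 kept it in both 7-day contrasts. Median centring took miR-489 past the threshold between the times (0.78) and in the F test (adjusted p = 0.0469). MiR-31 turned sign at 7 days against control with 75th percentile centring (-0.39), cyclic loess (-0.021), no normalisation (-0.039) and centring on probes detected on all arrays (-0.39, chosen after seeing the data). Between the times it did so under the same settings (-0.31, -0.017, -0.15 and -0.42), and at 2 days with no normalisation (0.11) and the last centring (0.031). MiR-335 at 2 days stood at 0.00082 with no normalisation. With 1 array left out, miR-31 ran from -0.069 to 0.080 at 2 days, -0.031 to 0.11 at 7 days and -0.021 to 0.13 between the times, and miR-335 from -0.46 to 0.24 at 2 days. Counts of called probes were 0 at 2 days with 75th percentile centring, no normalisation, the added centring and only the 2 groups compared, 2 with no detection filter and 4 with array weights. At 7 days they were 16 with median centring, 10 with no normalisation, 10 with array weights, 5 with only the 2 groups, 2 in the authors' value table at either pseudocount (1 or 50), and 1 with 75th percentile and the added centring. Between the times median centring gave 16. The F test called 15 with median centring, 6 with array weights, 4 with no normalisation, 2 in the authors' table at a pseudocount of 1 (0 at 50) and 1 with probes detected on all 9 arrays. Left-out arrays gave 0 to 4 calls at 2 days, 0 to 3 at 7 days and 0 to 3 in the F test. Of same-numbered pairs of arrays, 3 of 9 had a correlation of deviations over 0.1, against 7 of 18 differently numbered pairs. With 3 arrays a group, this cannot settle whether replicate numbers pair the arrays. With the replicate block miR-489 stood at 0.50 ± 0.12 between the times (limma adjusted p = 0.629), and 1, 0 and 0 probes were called in the 3 contrasts. Of the 3 probes most like each miRNA, 0 or 1 stayed for miR-31, 1 or 2 for miR-489 and 2 for miR-335 under other scalings. The causes were not tested.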

Other observations

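The low value of miR-335 on 2-day array 3 was shared by its repeat spots. The 9 spots lay between 82.6 and 137 units of scanner brightness, against 114 to 198 on 2-day array 1 and 234 to 325 on 2-day array 2. Of the 178 tested probes 21 were lowest on that array, within the range of 6 to 44 over the 9 arrays, and its mean correlation with the other arrays was 0.987, within their range of 0.981 to 0.990. On the same array miR-31 had its highest uncorrected brightness, 72.8, with all 9 spots above both the 95th and the 99th percentile of the empty spots.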
